A study of Mus musculus with 4 samples.

Results

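Lef1, a high-mobility-group transcription factor of the TCF/LEF family, and 6 target or feedback genes of the Wnt pathway (Axin2, Lgr5, Notum, Nkd1, Sp5 and Cdx1) were followed across 4 cultures of mouse embryonic stem (ES) cells that differ in Sall4 genotype and in the presence of feeder cells. The genes were chosen by symbol: every probe set annotated to 1 of 9 symbols alone was taken, which gave 13 of 45037 probe sets, for 7 of the 9 genes. The symbols Tcf7 and T had no probe set in the annotation table used here, and they are not analysed here. The 7 genes had 1 to 4 probe sets each: 4 for Nkd1, 2 each for Lef1, Axin2 and Lgr5, and 1 each for Notum, Sp5 and Cdx1.

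In canonical Wnt signalling, a secreted Wnt protein binds Frizzled and LRP receptors, the cytoplasmic complex of Axin, APC and GSK3 stops degrading beta-catenin, and beta-catenin enters the nucleus and acts through TCF/LEF proteins bound to DNA. Many direct targets are themselves parts of the pathway: Axin2, Notum and Nkd1 dampen the signal, while Lgr5 is a receptor for R-spondins, which strengthen it. In mouse ES cells, TCF7L1 represses targets and pluripotency genes, and Wnt activity both supports self-renewal and accompanies the formation of primitive streak.

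The 4 groups had 1 Affymetrix array each. They were E14.1 ES cells labelled Sall4-null (delta/-, line KO1) on feeders, heterozygous cells (flox/-, line HET18) on feeders, and the same null and heterozygous lines on gelatin without feeders. Feeders were mouse embryonic fibroblasts resistant to blasticidin. LIF (leukaemia inhibitory factor) and blasticidin were in every medium, and both lines had been electroporated with a vector placing a blasticidin-resistance gene in the Oct3/4 locus, which selects for cells that express Oct3/4. Each genotype was 1 line, so line and genotype cannot be told apart, and no group had a replicate array.

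The values are the authors' MAS5 signals, on a linear scale on which each array has a trimmed mean of 100. The median signal per array lay between 16.1 and 18. Sall4 itself did not separate the genotypes in the direction of the labels: its brighter probe set read 1452.4 on the array labelled null and 780.8 on the heterozygous array on feeders, and 1670.5 and 1126.5 without feeders. The second Sall4 probe set had the same direction, at 218.8 and 88.6 on feeders and 380.5 and 147.2 without. Where these probe sets lie relative to the deletion is not given in the sources used here, so the genotype is given as labelled throughout. Pou5f1, the gene of Oct3/4, read between 977 and 1284.2 on all arrays. The summed signal of 17 embryonic fibroblast markers was far higher on feeders, at 22185 on the labelled-null array and 16846 on the heterozygous array. Without feeders the sum was also higher on the labelled-null array, at 7043.8 against 3346.9. Most of these 2 sums came from Vim (4448.5 and 1730.3) and Fn1 (1835.4 and 1350.8). Col1a2 (36.2 and 38.4) and Thy1 (15.7 and 20.8) were lower on the labelled-null array without feeders, and the other markers were higher. In cultures on feeders, a signal cannot be divided between ES cells and fibroblasts, and fewer cells of a type cannot be told apart from less RNA per cell.

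Proximal promoters of Sp5, Lef1 and Axin2 are shown because the genotype differences of these 3 genes had 3 different forms across the feeder conditions, described below. Each line gives 250 bases before a RefSeq transcription start site of build GRCm38.p6, plus strand, 5' to 3', with matches on either strand to the TCF/LEF core motif, CTTTG followed by 2 bases that are each A or T, in capitals.

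Sp5 (chr2:70474673-70474922): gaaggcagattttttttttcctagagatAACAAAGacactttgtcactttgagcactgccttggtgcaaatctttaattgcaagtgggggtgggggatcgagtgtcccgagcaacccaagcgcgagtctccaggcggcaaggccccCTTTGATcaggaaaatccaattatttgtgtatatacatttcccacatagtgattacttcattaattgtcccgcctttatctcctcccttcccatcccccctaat

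Lef1 (chr3:131110047-131110296): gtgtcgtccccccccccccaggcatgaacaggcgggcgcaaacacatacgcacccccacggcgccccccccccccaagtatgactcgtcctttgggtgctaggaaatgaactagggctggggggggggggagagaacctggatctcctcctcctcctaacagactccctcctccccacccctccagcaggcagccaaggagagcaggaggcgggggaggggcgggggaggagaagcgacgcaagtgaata

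Axin2 (chr11:108920099-108920348): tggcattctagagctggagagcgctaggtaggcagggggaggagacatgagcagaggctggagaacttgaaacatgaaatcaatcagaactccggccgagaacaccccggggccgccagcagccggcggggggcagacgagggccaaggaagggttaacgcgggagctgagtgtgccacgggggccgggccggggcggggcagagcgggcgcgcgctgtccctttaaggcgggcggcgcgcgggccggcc

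The Sp5 window held 2 matches, which did not overlap: CTTTGAT beginning 104 bases before the start site, and a match on the opposite strand, which reads AACAAAG in the line above and begins 222 bases before it. The windows shown for Lef1 and Axin2 held no match to these letters. A match to CTTTGAT was found in 3.2% of 32851 RefSeq windows of this length and a match to any of the 4 forms in 14.8%. Windows were found for 6 of the 9 symbols, with 10 windows in all, and none was found for Lgr5, Notum and Cdx1. Besides the Sp5 window, 1 of 4 Lef1 windows and the T window held 1 match each. These matches describe the sequence only.

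**Figure D1:**
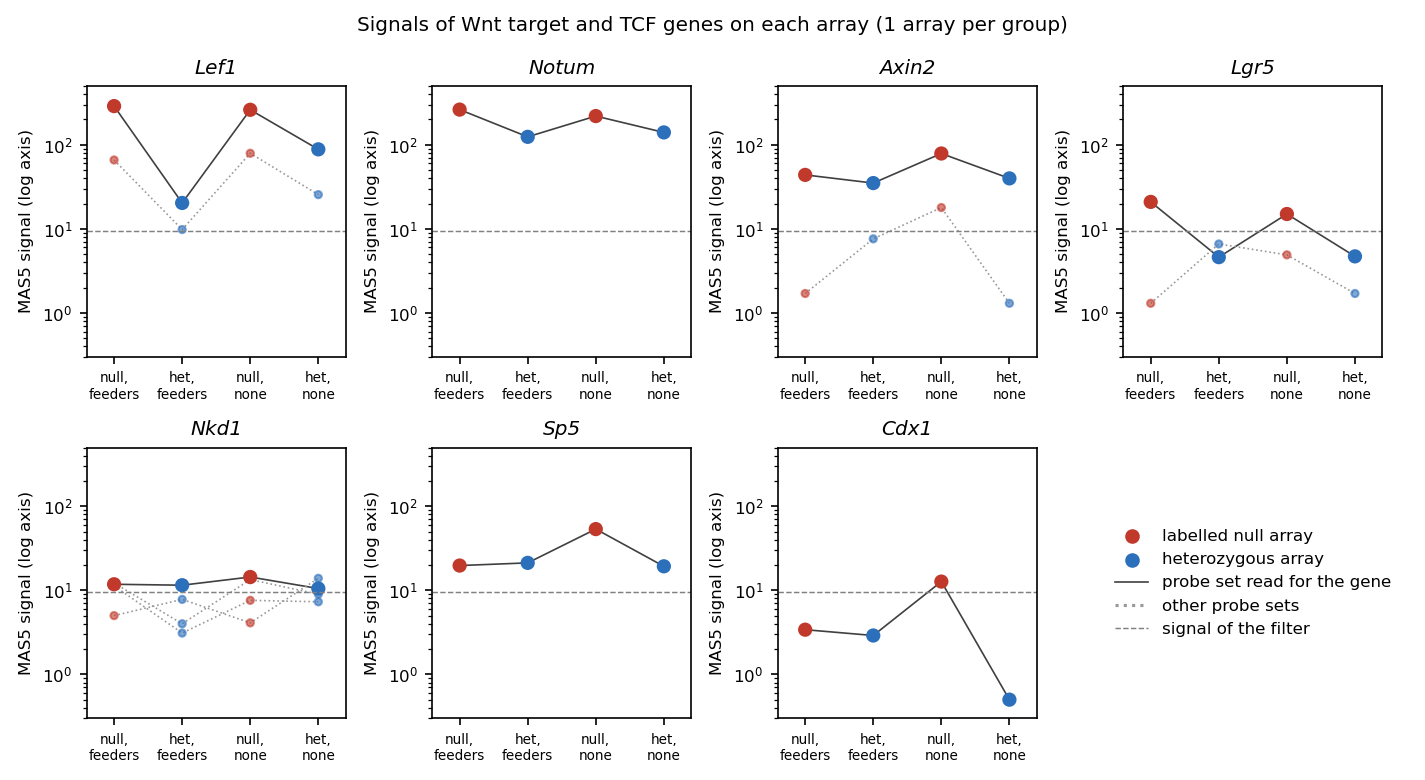
MAS5 signal on a logarithmic axis for each probe set of the 7 genes on the 4 arrays (null and heterozygous on feeders, then null and heterozygous without feeders). Solid lines join the probe set read for the gene and dotted lines the others, and the dashed line is the filter signal of 9.46. Both labelled-null arrays lie above both heterozygous arrays for Lef1, Notum and Lgr5 and, by a small margin, for Axin2 and Nkd1, while Sp5 stands out on 1 array only, at 53.5.

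The first question was how the genes differed between cells labelled null and heterozygous cells. Of the 7 genes the largest difference was that of Lef1, which binds the TCF/LEF core motif and recruits beta-catenin. Its brighter probe set read 288.3 on the labelled-null array and 20.3 on the heterozygous array on feeders, and 260.6 and 88.2 without feeders. Both labelled-null arrays were high and close to each other, and the heterozygous array on feeders was the lowest. This amounted to 11.8-fold on feeders and 2.86-fold without feeders. All folds and log2 differences here are on the scale log2(signal + 4.6), which draws those of weak signals towards 0 difference. The second Lef1 probe set, 65.9 against 9.8 on feeders and 79.2 against 25.5 without, had the same order of arrays by genotype and smaller differences, at 4.90-fold and 2.78-fold.

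Across both feeder conditions the fitted log2 difference of Lef1 was 2.54 (SE 0.46), the third highest of 12485 genes tested. On feeders alone it ranked 1 of 12485, and without feeders 166. In an additive limma model of genotype and feeders, the difference did not pass over all genes (adjusted p = 0.161). That model has 1 residual degree of freedom, which is the disagreement between the genotype differences in the 2 feeder conditions, and for Lef1 these differed by 2.04 on the log2 scale.

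Notum encodes a secreted carboxylesterase that removes the lipid from Wnt proteins and so inactivates them. It read 262 and 124.2 on the labelled-null and heterozygous arrays on feeders, and 219.4 and 140.2 without. The genotypes did not overlap, and the heterozygous arrays were within 1.12-fold of each other. The log2 difference was 1.05 on feeders and 0.63 without, with a fitted value of 0.84 (SE 0.19, adjusted p = 0.217 by limma).

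Lgr5 marks Wnt-responsive stem cells of several adult epithelia. Its brighter probe set read 20.9 and 4.6 on the labelled-null and heterozygous arrays on feeders, and 15 and 4.7 without. Both heterozygous arrays read less than the filter signal of 9.46, and the gene was tested only because of its signals on the labelled-null arrays. The fitted log2 difference was 1.27 (SE 0.37, adjusted p = 0.288 by limma). The second probe set did not repeat this order, with 1.3 and 6.6 on feeders and 4.9 and 1.7 without, all under the filter signal.

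Axin2, a scaffold of the beta-catenin destruction complex and a widely used readout of Wnt activity, read 43.8 and 35 on the labelled-null and heterozygous arrays on feeders, and 78.7 and 39.8 without. The labelled-null array without feeders was the high one, and the other 3 were between 35 and 43.8. The log2 difference was 0.29 on feeders and 0.91 without, and the fitted value of 0.60 (SE 0.25) had an adjusted p of 0.421 by limma. The weak second probe set, with 1.7 and 7.6 on feeders and 17.9 and 1.3 without, was lower in null on feeders and higher without.

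Sp5, a zinc finger transcription factor induced by Wnt, had different signs in the feeder conditions. It read 19.7 on the labelled-null array and 21.2 on the heterozygous array on feeders, and 53.5 and 19.3 without. Thus 3 arrays were alike and the labelled-null array without feeders was 2.43-fold above its heterozygous counterpart. The fitted log2 difference was 0.60 (SE 0.38, adjusted p = 0.589 by limma).

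Cdx1, a caudal-type homeobox gene of the posterior embryo, showed its highest signal on the same array. It read 3.4 and 2.9 on the labelled-null and heterozygous arrays on feeders, and 12.7 and 0.5 without. It lay under the filter on low signals and was not tested. Nkd1, whose product binds Dishevelled and dampens the pathway, read 11.8 and 11.5 on feeders and 14.4 and 10.5 without by its brightest probe set, with a fitted log2 difference of 0.18 (SE 0.34, adjusted p = 0.873 by limma). Its 4 probe sets, all under the median signal of 17.1 on every array, had fitted differences from -0.73 to 0.69 and did not share a direction.

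By limma 0 of the 6 tested genes passed between genotypes over all genes, where 0% of genes tested were called higher and 0.032% lower. At an unadjusted p under 0.05, 3 of the 6 were higher (Lef1, Notum and Lgr5) and 0 lower, beside 5.8% and 6.5% of all genes tested. By a size rule with no test, which asks for 2-fold or more with 1 sign on feeders and without and for a signal above 17.1 on at least 1 array of each pair, 1 of the 6 (Lef1) was higher, beside 0.328% of genes. Both labelled-null arrays lay above both heterozygous arrays for 5 of the 6, beside 15.1% of genes tested. The genes were chosen with earlier results of these data known and Lgr5 passed the filter through its labelled-null arrays, so these counts describe the genes and support nothing. The median log2 difference of the 6 was 0.67 on feeders and 0.99 without, beside 0.0078 and 0.0029 for all genes tested.

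**Figure D2:**
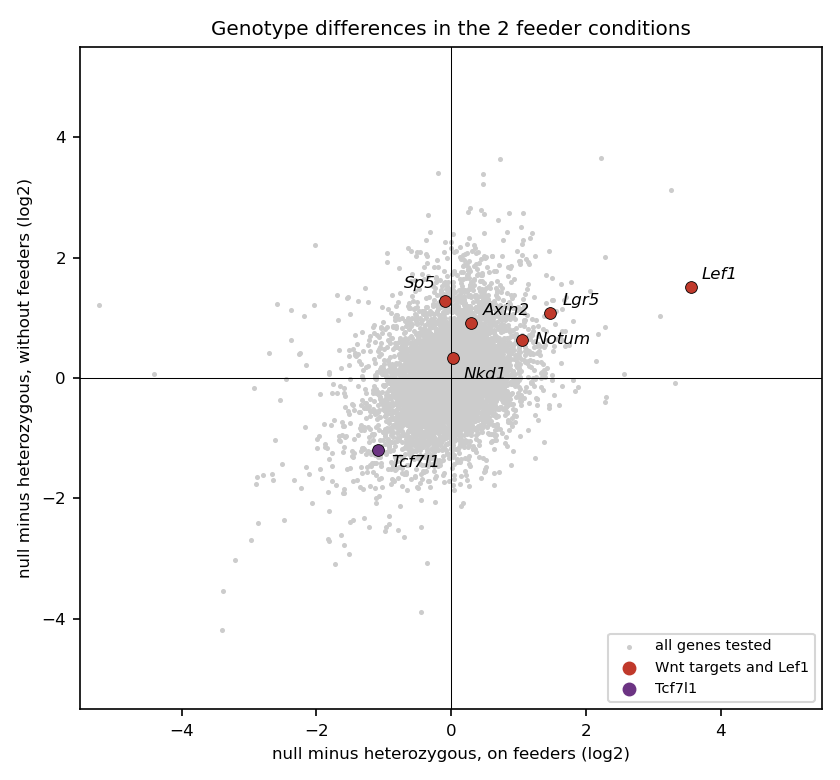
Log2 difference of the labelled-null minus the heterozygous array, on feeders (horizontal) and without feeders (vertical), for 12485 genes (grey), the 6 tested genes (red) and Tcf7l1 (purple), with 1 pair of arrays per axis. Lef1 lies at 3.56 and 1.51, Sp5 at -0.09 and 1.28, and Tcf7l1 at -1.08 and -1.20.

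Of the genes that act beside Lef1 in the nucleus, Tcf7l1 had the opposite order. TCF7L1 is the TCF protein that represses Wnt targets in ES cells. Its signal was 409.9 on the labelled-null array and 872.9 on the heterozygous array on feeders, and 443 and 1025.5 without. Both labelled-null arrays lay below both heterozygous arrays, as for 17.1% of genes tested, and the feeder conditions were close. The log2 difference was -1.08 on feeders and -1.20 without. The fitted value of -1.14 (SE 0.12) had an adjusted p of 0.101 by limma, and its unadjusted value ranked 15 of 12485. Over 10 other settings of the fit its adjusted p ran from 0.0665 to 0.945. Tcf7l1 met the size rule for lower genes, as did 0.785% of genes tested.

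The other nuclear partners had small differences. Ctnnb1, the beta-catenin gene, read 3572.1 and 3254.8 on feeders and 3731.9 and 3486.9 without, a fitted log2 difference of 0.12 (SE 0.07), and Tcf7l2 had one of 0.21 (SE 0.21). The Groucho-type corepressor genes Tle4, Tle3 and Tle1 had fitted differences of 0.51, -0.35 and -0.26. Of 10 tested genes in this group, 0 passed by limma over all genes, and the median was 0.13. At an unadjusted p under 0.05 by limma, 1 was higher and 1 lower (Tle4 and Tcf7l1). At that level 5.8% of all genes tested were higher and 6.5% lower, which is also the background for the groups below.

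Among ligands and their secretion, Wnt7b was lower in cells labelled null in both conditions. It read 25.8 and 106.2 on the labelled-null and heterozygous arrays on feeders, and 29.8 and 71.4 without (fitted log2 difference -1.50, SE 0.26, adjusted p = 0.152 by limma), and it met the size rule for lower genes. Rspo3, an R-spondin ligand of LGR receptors, read 33.7 and 23.6 on feeders and 60.1 and 4.7 without. Wls, the carrier protein for Wnt secretion, read 461.6 and 362.5 on feeders and 405.6 and 83.7 without. For Wnt5a, a ligand best known for beta-catenin-independent signalling, the signals were 117.9 and 84.3 on feeders and 40.9 and 8.9 without. Rspo3, Wls and Wnt5a were thus higher on both labelled-null arrays than on their counterparts. The larger difference was without feeders. Of 17 tested fibroblast markers, 15 were higher on the labelled-null array in both conditions. Their median log2 difference was 0.50 on feeders and 1.33 without. The part of fibroblast RNA in the differences of Rspo3, Wls and Wnt5a was not tested. In this group 13 of 25 genes were tested and 0 passed by limma over all genes, while 3 were higher and 1 lower at an unadjusted p under 0.05, with a median of 0.23.

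Receptors had a median fitted difference of 0.42 on the log2 scale, beside 0.009 for all genes tested. Their median was 0.36 on feeders and 0.48 without. Of 17 tested, 10 were higher in cells labelled null in both feeder conditions and 3 lower in both. Among all genes tested, 30.5% were higher in both and 39.9% had opposite signs. The rest were lower in both or had a difference of 0 in a condition. Ror1, a receptor tyrosine kinase for Wnt5a, read 63.6 and 36.4 on feeders and 127.3 and 44.6 without, and Fzd2 read 134.7 and 78.1 on feeders and 170.7 and 76.4 without. Their fitted log2 differences were 1.08 (SE 0.25) and 0.93 (SE 0.20), and that of Fzd3 was 0.74. With the mean of all probe sets of a gene in place of the brightest, that of Ror1 was 0.45 and that of Fzd3 0.28. Fzd9, at -0.99, read 15.7 and 13.8 on feeders and 1 and 19.9 without. None of the 17 passed by limma over all genes (0 higher, 0 lower), with 5 higher and 0 lower at an unadjusted p under 0.05.

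The cytoplasmic transducers, which include the destruction complex, had differences between -0.08 and 0.37, with a median of 0.10 and 0 of 12 below an unadjusted p of 0.05. The 4 with the largest differences were Apc2 at 0.37, Amer1 at 0.28, Gsk3b at 0.15 and Gsk3a at 0.14. Secreted and other inhibitors had a median of 0.32. Apcdd1 had a fitted difference of 0.55, Frzb of 0.53 and Dkk2 of 0.51, each with 1 sign in both conditions. The value of Sfrp5, 0.79 (SE 0.64), came from differences of opposite sign, with signals of 13.2 and 20.8 on the labelled-null and heterozygous arrays on feeders and 19.6 and 1.1 without. Of the inhibitors 0 of 10 passed by limma over all genes, with 1 (Apcdd1) higher at an unadjusted p under 0.05. Among 9 tested genes of a further target list, 0 passed by limma and 1 (Cdx2) was higher at an unadjusted p under 0.05. In that list Cdx2 had a fitted log2 difference of 1.25, Cd44 of 1.07, Sp8 of 0.82 and Tnfrsf19 of 0.71. Each of these 4 had its larger difference without feeders, as Axin2, Sp5 and Cdx1 did, and that of Tnfrsf19 on feeders was -0.05. Myc and Ccnd1 had fitted values of -0.30 and -0.32, each from differences of opposite sign in the 2 feeder conditions.

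**Figure D3:**
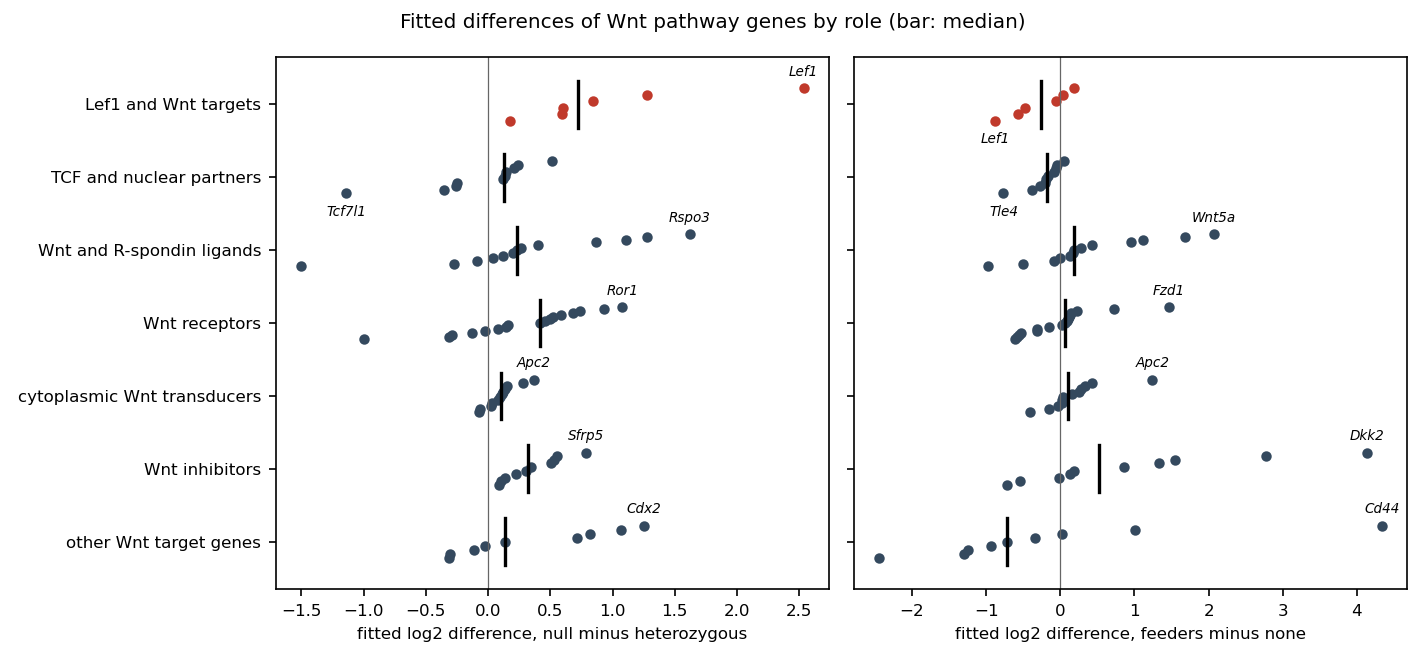
Fitted log2 difference of each tested gene by role in the Wnt pathway, for labelled null minus heterozygous (left) and feeders minus none (right), with a bar at each group's median and the gene with the largest absolute value named. Lef1 reaches 2.54 on the left, and Cd44 and Dkk2 reach 4.34 and 4.13 on the right.

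Markers of other cell types were read on the same arrays, and 0 in these lists passed between genotypes by limma over all genes. At an unadjusted p under 0.05 by limma, 7 of 10 neural and 12 of 17 fibroblast markers were higher and 5 of 10 ES cell markers lower. Of all genes tested, 5.8% were higher and 6.5% lower at that level. Among the 7 neural markers, En1 read 5.4 and 4.5 on the heterozygous arrays on feeders and without, both under the filter signal. It was tested only because of its signals on the labelled-null arrays. Sox1 (4 on feeders) and Zic1 (7.7 without) each had a heterozygous array under the filter signal. These counts describe the markers and support nothing. Of 10 tested neural markers 8 were higher in cells labelled null in both conditions, with summed signals of 676 and 302.1 on the labelled-null and heterozygous arrays on feeders and 863.3 and 479.3 without. Of 17 tested fibroblast markers 15 were higher in both, where 30.5% of all genes tested were higher in both. Primitive streak and mesoderm markers had summed signals of 97.6 and 123.8 on feeders and 275.1 and 203.9 without, with 6 of 14 above the filter. Without feeders the higher labelled-null sum came mostly from Cdx2, at 82.2 against 17.1. The other markers did not share a direction there, with Kdr at 40.7 and 25.3 and Mixl1 at 10.7 and 21. Mixl1 read at most 21 on any array. Of 9 tested endoderm markers 1 was higher and 4 lower in both conditions, with summed signals of 837 and 911.2 on feeders and 985.5 and 782.9 without. Beside the 30.5% of all genes tested that were higher in both, 39.9% had opposite signs. The rest were lower in both or had a difference of 0 in a condition. ES cell markers had summed signals of 20760 and 22315 on feeders and 17208 and 20488 without. No marker of these lists was at 0 on all arrays. The part of these markers in the differences of the Wnt genes was not tested.

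The genes whose pattern over the 4 arrays was nearest to that of Lef1, by Euclidean distance between log2 profiles centred on their own mean, were Sox1, Cdh9, A930024E05Rik, Insm1 and Btla. The nearest, Sox1, a gene of early neural progenitors, lay at a distance of 0.59 and read 68.8 and 4 on the labelled-null and heterozygous arrays on feeders and 47.3 and 20.7 without. The second, Cdh9, a cadherin gene, was at 1.15. It read 45.3 and 0.4 on feeders and 27.2 and 29 without, where its log2 difference was -0.08, unlike that of Lef1. On the heterozygous array on feeders both Sox1 and Cdh9 were under the filter signal. With 4 arrays this ranking is a description only.

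The second question was what the presence of feeders went with. In the feeder comparison 0 of 6 tested genes passed by limma, and 0 had an unadjusted p under 0.05. At that level 14.1% of all genes tested were higher and 7.77% lower, so 0 of 6 does not set the members apart. The residual of the model is also the disagreement between the feeder differences in the 2 genotypes. A feeder difference in 1 genotype only therefore does not pass easily. By the adjusted test 3.88% of genes were called higher on feeders and 0.881% lower. Lef1 was lower on feeders in heterozygous cells, with 20.3 on feeders and 88.2 without, a 3.73-fold difference. In cells labelled null it read 288.3 on feeders and 260.6 without. Sp5 was lower on feeders in cells labelled null, with 19.7 on feeders and 53.5 without, a 2.39-fold difference, but had 21.2 and 19.3 in heterozygous cells. Axin2 had the same sign in both genotypes, with log2 differences of -0.78 in cells labelled null and -0.17 in heterozygous cells. By their brightest probe sets Notum, Lgr5 and Nkd1 differed by at most 1.30-fold between feeder conditions in either genotype. The comparisons by genotype and by feeders use the same 4 arrays.

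**Figure D4:**
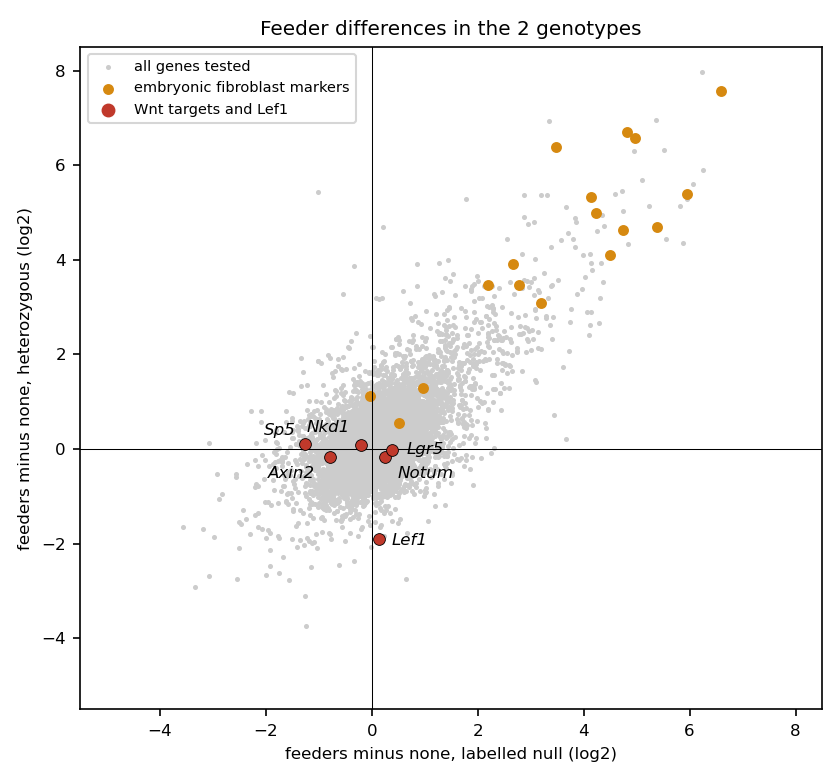
Log2 difference of feeders minus none in cells labelled null (horizontal) and heterozygous cells (vertical) for 12485 genes (grey), 17 embryonic fibroblast markers (orange) and the 6 tested genes (red), with 1 pair of arrays per axis. Lef1 lies at 0.14 and -1.90 and Sp5 at -1.26 and 0.11, away from the fibroblast markers.

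Several pathway genes outside this set were called in the feeder comparison. Dkk2 and Dkk3, members of the Dickkopf family of secreted Wnt modulators, rose by limma over all genes. Dkk2 read 120.1 in cells labelled null and 72.1 in heterozygous cells on feeders, and 1.6 and 0.4 without feeders (log2 difference 4.13, SE 0.30, adjusted p = 0.00295). Both arrays without feeders were under the filter signal, so the gene was tested only because of its signals on feeders. Dkk3 read 127.5 and 139.2 on feeders and 22.1 and 10.6 without (2.77, SE 0.29, adjusted p = 0.0081). Frzb, a secreted Frizzled-related protein gene, also rose (1.55, SE 0.26, adjusted p = 0.0334 by limma). This made 3 of 10 inhibitors higher and 0 lower, beside 3.88% and 0.881% of all genes tested.

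On the ligand and receptor side Wnt5a rose by 2.07 (SE 0.35, adjusted p = 0.0334 by limma) and Fzd1 by 1.46 (SE 0.21, adjusted p = 0.02). These were 1 gene of 13 and 1 of 17, beside 3.88% of all genes tested called higher, so the counts do not set these groups apart. Rspo2, with 32.6 and 49.8 on feeders and 13.8 and 6.1 without, did not pass (adjusted p = 0.0789), and neither did Wls (adjusted p = 0.203) or, among the transducers, Apc2 (adjusted p = 0.12). In the further target list Cd44 rose by 4.34 (SE 0.46, adjusted p = 0.00841), while Cdx2 fell by 2.44 (SE 0.45, adjusted p = 0.043) and Myc fell by 1.30 (SE 0.24, adjusted p = 0.0421). Cdx2 read 4.9 and 2.1 on feeders, both under the filter signal, and 82.2 and 17.1 without, the arrays through which it was tested. With no filter its adjusted p was 0.102. Of these 8 calls, that of Dkk2 held in the 9 other settings of the fit in which it was tested, with log2 differences from 2.61 to 5.62 as the offset changed, and each of the other 7 was lost in at least 1 setting. Since Dkk2 entered the test through the arrays on which it is high, this says little of its stability. These feeder differences stand beside fibroblast markers of which 15 of 17 rose, and a part of feeder RNA in them was not tested.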

How the data were processed

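Biotin-labelled cRNA from 4 ES cell cultures was hybridised to 1 array each. Per the submitters' processing notes the deposited intensity values are MAS5 signals (version not given in the sources used here), without detection calls. The 64 control probe sets were dropped. Of the rest, 34945 had 1 gene symbol in the platform annotation, 932 had several and 9160 were not listed. Only those with 1 symbol were used, and they named 18193 genes. No symbol needed updating through its Entrez ID.

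Signals were transformed as log2(signal + 4.6), with 4.6 the 25th percentile of all signals. Each gene was read by its brightest probe set, and genes under the 40th percentile of mean log2 (3.81, a signal of 9.46) were not tested. The additive model of genotype and feeders was fitted to 12485 genes in limma 3.58.1 (R 4.3.3, lmFit, eBayes with trend, 1 residual and 4.75 prior degrees of freedom). Tests were two-sided with Benjamini-Hochberg adjustment at 0.05. The fit was also run on simulated data with independent noise, where fitted differences were compared with those put in. That run does not bear on the spread between cultures. Single pairs of arrays carry no test. With 1 array per group, p-values do not measure the spread between cultures.

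The genes, lists and rules were chosen with earlier results of these data known. The pathway genes named are, from each list, up to 4 with the largest fitted genotype difference and up to 3 with the largest feeder difference, besides Sall4, Pou5f1 and the 5 genes nearest to Lef1. Ctnnb1, Tcf7l2 and Ccnd1 were named after their values were seen. So were the markers Mixl1, Kdr, Vim, Fn1, Col1a2, Thy1, En1 and Zic1. Promoter sequences are from RefSeq, GRCm38.p6. Alternatives were other offsets, normalizations, filters, probe set rules, models and fold thresholds.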

Additional observations from a re-analysis of the deposited data

Results flagged for a closer look

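Differences of opposite sign in the 2 conditions of the other factor were marked, from 1 pair of arrays each, and none of these contrasts between conditions was tested. All values are log2 differences. For Sp5, null minus heterozygous was -0.086 on feeders and 1.28 without feeders. Its difference of feeders minus none was -1.26 in cells labelled null and 0.11 in heterozygous cells. For Lef1, feeders minus none was 0.143 in cells labelled null and -1.9 in heterozygous cells. The remaining genes had small values of opposite sign by feeders: 0.38 in cells labelled null and -0.0156 in heterozygous cells for Lgr5, -0.212 and 0.0925 for Nkd1, and 0.251 and -0.169 for Notum. Null minus heterozygous had opposite signs in the 2 feeder conditions for 39.9% of all genes tested, a share that applies only to the genotype difference of Sp5. The share of all genes with opposite feeder signs in the 2 genotypes was not counted. The feeder items above therefore have no background and only describe these arrays.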

How the results depend on the processing

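No paired analysis was possible because each group held 1 array, so no replicate numbers could pair samples. The additive model itself compares genotypes within each feeder condition, and the model with 1 factor drops that term. The count of genes of the set called between genotypes or by feeders was 0 in all 10 other settings of the fit. Not every gene was tested in each. Lgr5, Nkd1 and Sp5 were not tested with the filter at the 60th percentile, nor Lgr5 and Nkd1 with the mean of probe sets. Cdx1 was tested with no filter. The genotype difference of Lef1 ran from 2.21 to 2.66 over the 10 settings (adjusted p 0.125 to 0.999 by limma). It was 3.56 in the pair on feeders alone and 1.51 in the pair without feeders alone. At 3-fold, 0 genes of the set met the size rule between genotypes, since Lef1 was 2.86-fold higher without feeders. Over all genes, the 4 genotype calls became 7 with quantile normalization or median centring, 12 with every probe set tested, and 0 with 1 factor, without the variance trend, without a filter or with the filter at the 60th percentile. The 595 feeder calls ran from 183 (no trend) to 1005 (every probe set), the 139 genes of the size rule by genotype from 32 (3-fold) to 174 (every probe set), and the 560 by feeders from 262 (3-fold) to 738 (every probe set). Signs turned in single pairs: in the heterozygous pair, feeder differences were 0.56 for Cdx1, -0.016 for Lgr5, 0.093 for Nkd1, -0.17 for Notum and 0.11 for Sp5, and in the null pair 0.14 for Lef1, while Sp5 by genotype was -0.086 on feeders. Notum by feeders was -0.0027 with quantile normalization and -0.026 with median centring, and Ctnnbip1 by feeders was 0.13 with the mean of probe sets. With the mean of probe sets, feeder differences were 1.15 for Wnt5a (adjusted p = 0.116), 2.96 for Cd44 and 0.73 for Rspo2, and Lgr5 by genotype was 0.68 with the offset at the median signal. Tle4 by feeders gained a call with median centring (adjusted p = 0.044) and with every probe set tested (adjusted p = 0.0393). The cause of these shifts was not tested. Signals of Cdx1, Nkd1 and the weak probe sets of Lgr5 and Axin2 lie near or under the filter signal, which limits what they show.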
